A study of Homo sapiens with 4 samples.

Results

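The chaperone and heat-shock genes were taken by gene symbol: the HSP70, HSP90, HSP110 and small heat-shock protein genes, the DNAJ genes, the mitochondrial and the cytosolic (TRiC/CCT) chaperonins, prefoldin, the BAG genes, the heat-shock factors HSF, and the HSP90 co-chaperones AHSA and STIP1. Of 14911 listed genes, 95 matched these symbols. Of those, 42 averaged 50 counts or more across the 4 libraries and were used for every comparison below, among 5320 such genes in all. The other 53 had between 0 and 99 counts in a library, and their values are given only where the gene is well known.

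m6A-seq was carried out on HEK293T, a line derived from human embryonic kidney that expresses the large T antigen of SV40. Poly(A) RNA was fragmented, and one portion was sequenced as it was (input) while another was first pulled down with an antibody against N6-methyladenosine (m6A-IP). The cells carried either a control shRNA (shCTL) or an shRNA against ALKBH5 (shALKBH5, written shA5), an enzyme that removes m6A, and all 4 libraries came from cells exposed to X-rays. The 4 groups were therefore the shCTL input, the shCTL m6A-IP, the shA5 input and the shA5 m6A-IP, with 1 library each. The shRNAs were delivered with lentivirus, and the cells were selected with puromycin. The time of harvest and the ALKBH5 shRNA used for these libraries are not given in the sources used here. No library came from unirradiated cells, so a response of these genes to X-rays cannot be read from them. With 1 library per group there is no replicate check and no p-value. The 95% intervals below cover counting error only, and reads without molecular identifiers are not independent molecules.

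Chaperones bind unfolded proteins and help them to fold, to cross membranes or to be degraded. HSP70 works in cycles of ATP hydrolysis that J-proteins (DNAJ) start and that nucleotide exchange factors such as BAG proteins and HSP110 reset, and its clients may pass to HSP90 or to the ring-shaped TRiC chaperonin. Under stress, the factor HSF1 binds heat-shock elements, repeats of the bases GAA and TTC in alternate order, and turns on the inducible members such as HSPA1A, HSPA1B and DNAJB1, while the unfolded protein response of the endoplasmic reticulum turns on HSPA5 and HSP90B1.

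The libraries held 2237819 (shCTL input), 3944402 (shCTL IP), 1311390 (shA5 input) and 3148119 (shA5 IP) counts, so the shA5 input sets the precision. ALKBH5 itself had 486 input counts in shCTL and 145 in shA5, a difference of -0.97 on the log2 scale (-1.25 to -0.70). All 7 marker genes of the HEK293T line had counts, with a summed level of 543 to 1257 CPM, the count scaled by its library's total, most of it from IGF2BP1. VIM and NEFM had 2 to 8 counts in a library. Of 7 markers of blood, liver, endothelial and connective tissue cells, PTPRC, CD3E, ALB and HBB had 0 counts in all 4 libraries, and PECAM1, CD14 and COL3A1 had 0 to 19, with a summed level of 4.02 to 9.91 CPM.

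Heat-shock elements of 3 units (GAA, TTC and GAA, or TTC, GAA and TTC, with NN between neighbouring units, each the reverse complement of the other, so both strands were searched) were looked for in RefSeq promoters on GRCh38.p14, from 250 bases before to 50 bases after each start, with all annotated starts of a gene counted as 1 gene. Of the 95 genes, 83 were in that table. The element stood in 7 of the 83 (8.43%), against 0.608% of all 27305 genes in it, or 0.49% of 35116 promoters. The shorter 2-unit form GAANNTTC, part of the longer one, stood in 19 of the 83 (22.9%), against 8.21% of all genes and 6.77% of all promoters. The windows below show the longer element in HSP90 genes, in the J-protein genes DNAJA1 and DNAJB6 and in HSP70 genes (for HSPA8 the copy nearer the annotated start), and the 2-unit form in HSPA1B, the inducible HSP70 gene with most counts. The capitals mark the element. Distances are from the annotated start whose promoter holds it, which for HSP90AB1 and HSPA8 is not the start of the transcript with most counts.
HSP90AA1, chr14:102087114-102087138, minus strand, 88 bases before the start: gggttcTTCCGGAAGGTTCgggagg
HSP90AB1, chr6:44247772-44247796, plus strand, 165 bases before an inner annotated start and 677 after that of the leading transcript: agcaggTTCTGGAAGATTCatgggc
HSP90AB1, chr6:44247825-44247849, plus strand, 112 bases before an inner annotated start and 730 after that of the leading transcript: agattgTTCTGGAAGCTTCtggatt
DNAJA1, chr9:33025270-33025294, plus strand, 5′ end of the transcript: cgggcgGAACTTTCCAGAAcgctcg
DNAJB6, chr7:157336867-157336891, plus strand, 131 bases before the start: agccgaGAACCTTCGCGAAggtggg
HSPA6, chr1:161524460-161524484, plus strand, 74 bases before the start: gaaaggTTCGCGAAAGTTCgcggcg
HSPA8, chr11:123062173-123062197, minus strand, 55 bases before an annotated start and 860 before that of the leading transcript: ggccccTTCTGGAAGGTTCtaagat
HSPA1B, chr6:31827627-31827646, plus strand, 105 bases before the start: cccctgGAATATTCccgacc
HSPD1 was the 7th gene with the longer element. A match is a description of the letters, not evidence that HSF1 was bound there in these cells.

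Of the genes with this element, 4 were among the 42 tested. DNAJA1, a cytosolic partner of HSP70, had 1259 input counts in shCTL and 851 in shA5, a difference in CPM of 0.21 (0.08 to 0.33) on the log2 scale. HSP90AA1, the stress-inducible cytosolic HSP90, had 230 and 139 input counts (0.04, -0.27 to 0.35). HSP90AB1, the constitutive cytosolic HSP90, had 334 and 162 (-0.27, -0.55 to 0.00), and DNAJB6, which holds back protein aggregation, had 112 and 60 (-0.13, -0.61 to 0.34). Of the 4, 0 differed 1.5-fold between the populations (background 3.44% higher and 6.43% lower in shA5), and so few genes say nothing about the group.

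GGACT, the most common form of the sequence in which m6A is placed, was looked for on the transcript strand of the transcript with most counts (Gencode v44, hg38). HSPA1B (chr6:31827738-31830254, plus strand, a single exon) had 7 copies, as 20.4% of 5292 matched transcripts of all tested genes had at least 7. Of these, 3 lie in the 3′ UTR within 22 bases, the A of each lying 38 to 55 bases after the stop codon. The 22 bases are the extent of these copies in HSPA1B itself, so a count at that span is a description only. That density was found in 2 of the 5292 transcripts (0.0378%), 1 of them being HSPA1B. It is shown in a window of 28 bases, and the windows after it are the 3′ UTR copies of DNAJC30 and HSPA13, other members with a high IP-to-input ratio. The capitals mark GGACT.
HSPA1B, chr6:31829909-31829936, plus strand: ggtGGACTgttgGGACTcaaGGACTttg
DNAJC30, chr7:73681380-73681400, minus strand: agtacacaGGACTactgaggg
DNAJC30, chr7:73681153-73681173, minus strand: tctgttcgGGACTgagtgtga
HSPA13, chr21:14372545-14372565, minus strand: tcacacttGGACTcttttcaa
HSPA13, chr21:14371867-14371887, minus strand: gttctcttGGACTttatataa
Over the 42 members the number of GGACT copies and the IP-to-input ratio had a Spearman rho of 0.18 in shCTL and 0.16 in shA5 (0.10 and 0.11 over all tested genes). Both are weak.

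HSPA5, HSPA1B and HSP90B1 were the most abundant members in the inputs when counts were divided by transcript length. The level is in CPM per kilobase of transcript, with an exact Poisson interval. HSPA5 (BiP), the HSP70 of the endoplasmic reticulum, stood at 1300.0 (1276 to 1324) in shCTL and 1254 (1223 to 1285) in shA5. HSPA1B, whose counts may include reads of HSPA1A, stood at 1038 (1011 to 1064) and 1374 (1334 to 1414). HSP90B1 (GRP94), the HSP90 of the endoplasmic reticulum, stood at 1041 (1016 to 1067) and 852 (822 to 882). In shCTL, HSPA1B and HSP90B1 could not be told apart by level, and in shA5 HSPA1B was above HSPA5 and HSP90B1 below both. DNAJC8, a J-protein found with splicing factors, followed at 408 and 446. HSPA9 (mortalin), the HSP70 of the mitochondrial matrix, stood at 346 and 352, and DNAJA1 at 243 and 280. Together the members took 1.76 to 2.11% of a library's counts, and HSPA5, HSP90B1, HSPA1B and HSPA9 held 68.5 to 77.2% of these.

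**Figure D1:**
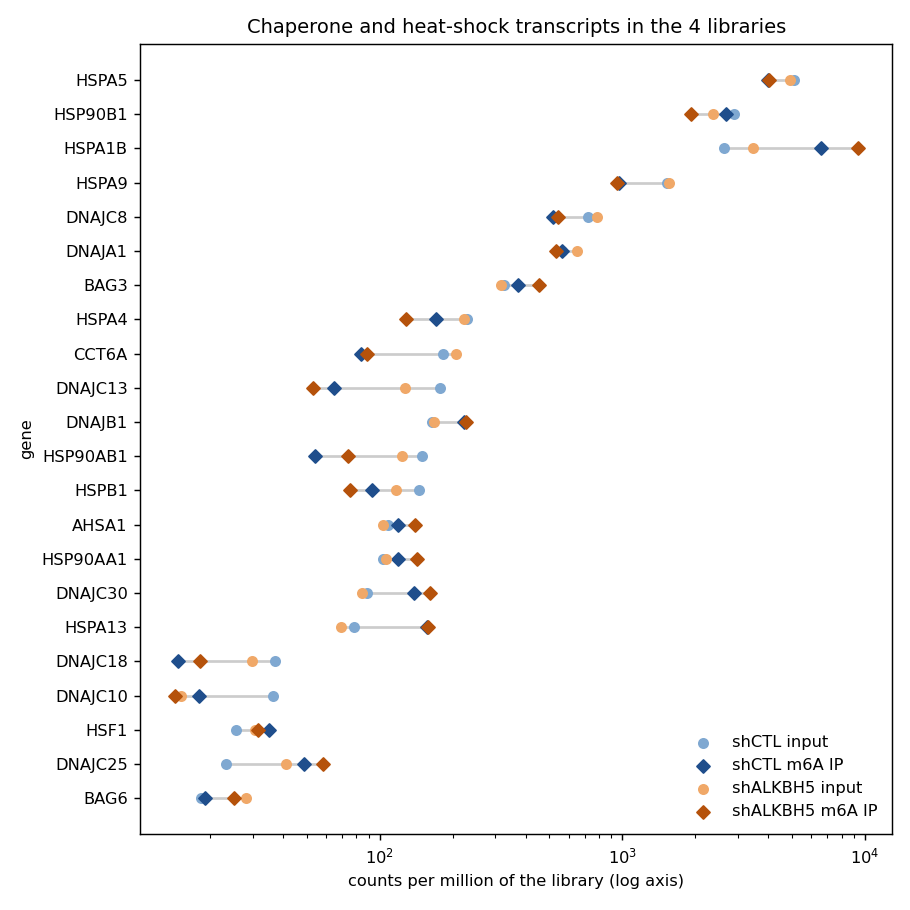
CPM in each of the 4 libraries (log axis) for the 22 tested members that the text names by rule, 1 point per library, circles for inputs and diamonds for IPs. For HSPA1B both IP points lie far to the right of both input points, and for HSP90AB1, CCT6A and DNAJC13 both lie to the left.

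Some well-known chaperones had few counts, which does not mean little mRNA. HSPA8, the constitutive cytosolic HSP70, had 16, 11, 15 and 10 counts in the order shCTL input, shCTL IP, shA5 input, shA5 IP, an order kept below. The canonical transcript of HSPA8 in Gencode v44 is not listed in the deposited tables, and the same holds for HSPH1 (HSP110, with 12, 23, 6 and 20 counts) and for 9 of the other members. HSPD1 (HSP60), the mitochondrial chaperonin, had 23, 29, 16 and 26 counts, and its partner HSPE1 had 52, 22, 18 and 9. HSPA1A, the twin gene of HSPA1B, had 0, 3, 0 and 4 counts, at or near the limit of 3 counts that a count of 0 allows (1.34 CPM for the input of shCTL and 2.29 CPM for that of shA5). Of the 25-base stretches of the HSPA1B transcript, 74% also occur in a transcript of HSPA1A. Most of the sequence therefore does not separate the pair, and reads of either may stand under HSPA1B. HSF2 (15, 2, 5 and 5), STIP1 (29, 99, 12 and 55), DNAJB9 (33, 40, 31 and 62) and TCP1 (68, 23, 25 and 8) also stayed under the minimum. Of the 42 tested members, 37 had over 90% of their counts on the canonical transcript.

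The first question was which of these transcripts the m6A antibody pulled down. The IP-to-input ratio is given as log2 of IP CPM over input CPM, with 0.5 CPM added to each. A gene is called enriched or depleted when the ratio was at least 1.5-fold above or below 1. In shCTL 6 of the 42 members were enriched (background 22.5% of all tested genes) and 12 were depleted (background 30.3%). In shA5 4 were enriched (background 24.3%) and 14 depleted (background 31.7%). The shares of the members were 14.3 and 28.6% in shCTL and 9.52 and 33.3% in shA5, lower than the background for enrichment and near it for depletion. The median ratio was -0.21 in shCTL and -0.28 in shA5, against -0.11 and -0.10 over all tested genes. With the trend of the ratio on GC content removed, the medians were -0.08 and -0.13, against -0.10 and -0.11 over all tested genes. The order of the members was alike in both populations, with a Spearman rho of 0.92 over the 42 members (0.93 over all tested genes). This correlation is across genes, which share the libraries and are not replicates.

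HSPA1B had the highest ratio of the members in both populations, though not with the trend of the ratio on GC content removed. Its counts were 5844 (shCTL input), 25879 (shCTL IP), 4534 (shA5 input) and 29520 (shA5 IP). Both IPs were well above both inputs after scaling to the library, and the ratio was 1.33 (1.29 to 1.37) in shCTL and 1.44 (1.39 to 1.48) in shA5. With the GC trend removed it was 1.11 and 1.18. HSPA13, a microsomal HSP70-like ATPase, had 175, 619, 91 and 498 counts, with ratios of 1.0003 (0.76 to 1.26) and 1.18 (0.86 to 1.53), which became 1.59 and 1.87 with the GC trend removed, above those of HSPA1B. DNAJC30, a mitochondrial J-protein encoded by a single exon, had 198, 546, 111 and 506 counts, with ratios of 0.64 (0.41 to 0.89) and 0.92 (0.63 to 1.23). These genes were enriched in both populations, as was DNAJB4 (28, 86, 20 and 74 counts, 0.78 and 0.61), whose interval in shA5 reaches below 0 (-0.10 to 1.42) and which was not called there with 2 CPM added. With the libraries thinned to the smallest total, DNAJB4 had too few counts to be tested and DNAJC30 was under 1.5-fold in shCTL (0.50). DNAJB4 is named because it completes this count and was chosen after its values were seen. Its input counts, 28 and 20, were each under the minimum mean, which it passed only through its IP counts. The minimum therefore favours calling such a gene enriched. DNAJC25, a further J-protein, had 52, 192, 54 and 184 counts and was enriched in shCTL (1.05, 0.62 to 1.54) but not in shA5 (0.50, 0.06 to 0.97). Its difference is given below. DNAJC17 (90, 239, 72 and 179 counts), also chosen after its values were seen, stood at 0.59 in shCTL, just at the threshold, and at 0.05 in shA5, and was not called in shCTL with TMM or DESeq2 scaling, with 2 CPM added or with its leading transcript alone. With the GC trend removed, DNAJC25 passed the threshold in both populations, DNAJC17 in neither and DNAJC30 in shA5 only.

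The inducible genes were not alike in this ratio. HSPA1B was high, whereas DNAJB1, the J-protein partner of inducible HSP70, had 366, 882, 220 and 711 counts with ratios of 0.45 (0.27 to 0.63) and 0.43 (0.21 to 0.65). BAG3, a nucleotide exchange factor of HSP70 in selective autophagy, had 726, 1461, 414 and 1428 counts with ratios of 0.19 (0.06 to 0.32) and 0.52 (0.36 to 0.68). HSP90AA1 had 230, 468, 139 and 448 counts with ratios of 0.21 (-0.02 to 0.44) and 0.42 (0.15 to 0.71). All of these were above 0 and under 1.5-fold, but with thinned libraries DNAJB1 passed 1.5-fold in shCTL (0.66), and with the GC trend removed HSP90AA1 passed 1.5-fold in both populations (0.61 and 0.89) and BAG3 stood at 0.01 and 0.30. HSPA6, an HSP70 gene known for strict stress induction, had only 6, 25, 3 and 51 counts and was not tested. On these few counts its ratios were 1.10 (-0.08 to 2.82) and 2.58 (1.20 to 5.15). It was named after its values were seen, because its promoter holds the element shown above. HSPB1 (HSP27), a small heat-shock protein, had 324, 368, 153 and 237 counts and was depleted, with ratios of -0.63 (-0.85 to -0.41) and -0.63 (-0.93 to -0.33), though thinned libraries gave -0.46 in shCTL. HSF1, the heat-shock factor itself, had 57, 138, 40 and 99 counts with ratios of 0.45 (0.00 to 0.93) and 0.04 (-0.50 to 0.61).

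**Figure D2:**
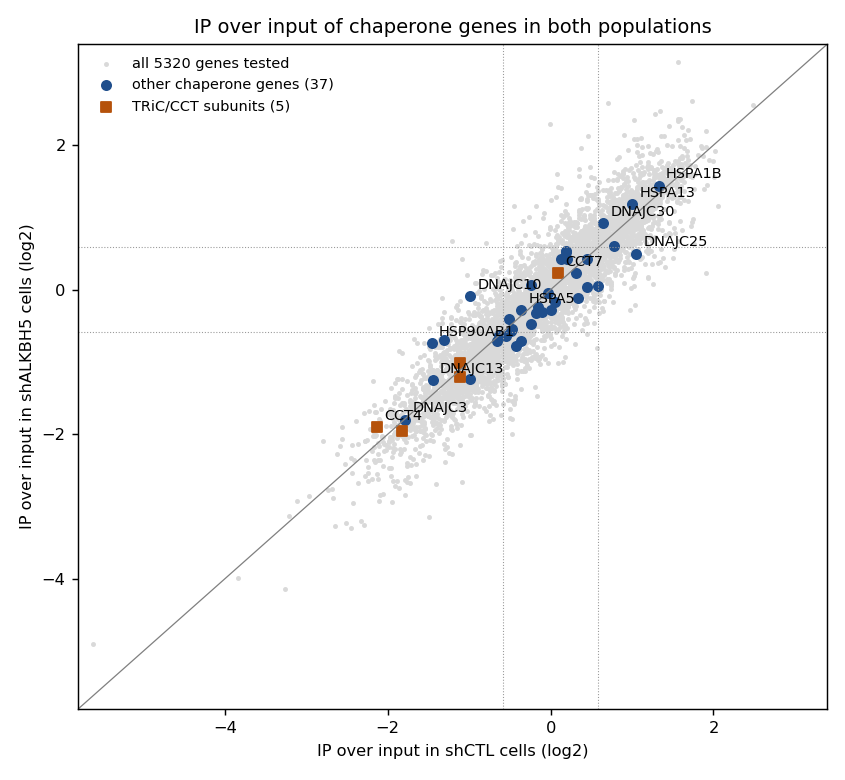
IP-to-input ratio (log2) in shCTL on the horizontal and in shA5 on the vertical axis for all 5320 tested genes (grey), the 5 tested TRiC/CCT subunits (squares) and the 37 other members (circles), with dotted lines at 1.5-fold and a line of equal values. HSPA1B, HSPA13 and DNAJC30 lie at the top right, 4 TRiC/CCT subunits at the bottom left, and HSP90AB1 and DNAJC10 above the line.

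TRiC/CCT is the cytosolic chaperonin that folds actin and tubulin. Of its 8 genes 5 were tested, and 4 of the 5 were depleted in both populations (background 30.3% in shCTL and 31.7% in shA5), CCT4 having too few counts to be tested in thinned libraries. CCT6A had 409, 331, 271 and 280 counts, with ratios of -1.12 (-1.34 to -0.91) and -1.21 (-1.46 to -0.97). The other subunits are named to complete the complex and were chosen after their values were seen. CCT3 had 198, 160, 144 and 170 counts (-1.12 and -1.02), CCT4 had 103, 40, 64 and 40 (-2.13 and -1.90) and CCT5 had 129, 63, 99 and 60 (-1.82 and -1.96). CCT7 stood apart from these, with 155, 290, 88 and 248 counts and ratios of 0.09 (-0.20 to 0.38) and 0.23 (-0.13 to 0.60). The intervals of CCT7 did not overlap those of CCT6A in either population. CCT4, with IP counts of 40 and 40, passed the minimum mean only through its inputs, which favours its depleted call. TCP1, the first subunit of the ring, was under the minimum and is not among the 5 tested. On its few counts it had ratios of -2.29 (-3.13 to -1.68) and -2.69 (-4.27 to -1.71). GGACT was absent from the CCT4 transcript, which 6.69% of all matched transcripts and 3 of the 42 members shared. It occurred 1 time in CCT3, 2 times in CCT7 and 3 times each in CCT5 and CCT6A.

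The cytosolic and endoplasmic HSP90 and HSP70 genes were spread over the range. HSP90AB1 had 334, 213, 162 and 233 counts and was depleted in both populations, with ratios of -1.46 (-1.72 to -1.21) and -0.74 (-1.03 to -0.44). With the GC trend removed it passed 1.5-fold in shCTL only. HSP90B1 had 6482, 10576, 3107 and 6039 counts, with ratios of -0.11 (-0.16 to -0.07) and -0.30 (-0.37 to -0.24). HSPA5 had 11407, 15638, 6446 and 12695 counts, with ratios of -0.36 (-0.40 to -0.33) and -0.29 (-0.33 to -0.24). Neither endoplasmic gene was called, and the intervals of HSPA5 and HSPA1B were far apart. HSPA9 had 3414, 3807, 2033 and 2994 counts and was depleted, at -0.66 (-0.73 to -0.59) and -0.70 (-0.79 to -0.62). HSPA4, an HSP110-type exchange factor, had 514, 673, 291 and 406 counts, at -0.43 (-0.60 to -0.26) and -0.78 (-1.004 to -0.56), and was called depleted in shA5 only. With the GC trend removed, the depletion of HSPA9 in both populations and of HSPA4 in shA5 no longer passed 1.5-fold (-0.28, -0.26 and -0.35).

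Among the J-proteins, 19 of 42 listed genes were tested, with 4 enriched and 5 depleted in shCTL (background 22.5 and 30.3%) and 2 enriched and 5 depleted in shA5 (background 24.3 and 31.7%). The best covered ones lay near or below 0. DNAJC8 had 1610, 2046, 1031 and 1702 counts, with ratios of -0.47 (-0.57 to -0.38) and -0.54 (-0.65 to -0.43). DNAJA1 had 1259, 2233, 851 and 1678 counts, with ratios of 0.01 (-0.09 to 0.11) and -0.28 (-0.40 to -0.16). DNAJC13 (RME-8), a J-protein of endosomes, had the lowest ratio among members averaging 200 counts or more, taken as the mean of both populations. It had 397, 255, 167 and 167 counts, with ratios of -1.45 (-1.69 to -1.23) and -1.26 (-1.58 to -0.95). AHSA1, the activator of the HSP90 ATPase, had 242, 468, 136 and 439 counts, with ratios of 0.13 (-0.09 to 0.36) and 0.43 (0.15 to 0.72).

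The remaining tested members are given to complete the set, and were chosen after their values were seen. DNAJC3 (P58IPK), a co-chaperone of HSPA5 in the endoplasmic reticulum, had 140, 70, 77 and 52 counts, with ratios of -1.79 (-2.25 to -1.39) and -1.80 (-2.37 to -1.30), and its interval was below 1.5-fold depletion in both populations. DNAJA2, a cytosolic partner of HSP70, had 663, 798, 410 and 633 counts, with ratios of -0.55 (-0.70 to -0.40) and -0.64 (-0.82 to -0.45), on either side of the threshold. HSPB8, a small heat-shock protein that works with BAG3, had 60, 82, 52 and 76 counts, with ratios of -0.36 (-0.87 to 0.14) and -0.70 (-1.24 to -0.18). Unlike DNAJC3, these were called in shA5 only, and neither difference between the populations passed 1.5-fold (-0.09 for DNAJA2 and -0.34 for HSPB8). With the GC trend removed or with thinned libraries, DNAJA2 was not called in shA5, and HSPB8 had too few counts to be tested after thinning. BAG2, which inhibits the ubiquitin ligase CHIP, had 119, 149, 74 and 119 counts, with ratios of -0.49 and -0.57. The prefoldin subunits, which hand unfolded actin and tubulin to TRiC, were PFDN2 with 298, 462, 150 and 288 counts (-0.18 and -0.32) and PFDN6 with 56, 113, 36 and 126 (0.19 and 0.54), and neither was called. DNAJC5 (CSP), a J-protein of secretory vesicles, had 782, 1353, 553 and 1291 counts, with ratios of -0.03 and -0.04. DNAJC1, DNAJC2, DNAJC9, DNAJC11 and DNAJB12 had ratios between -0.48 and 0.33 in both populations. DNAJC11, a J-protein of mitochondria, was just under the threshold in the input, with 115 and 101 input counts and a difference of 0.58 (0.18 to 0.98), and passed it with its leading transcript alone (0.59) and with thinned libraries (0.72).

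The members' ratios had a larger correlation in size with the number of exons than with the number of GGACT copies, as a description across genes that share the libraries. The Spearman rho between the ratio and the number of exons of the leading transcript was -0.42 in shCTL and -0.48 in shA5 over the 42 members, and -0.26 in both over 5292 tested genes. HSPA1B and DNAJC30, the 2 members with 1 exon, were both enriched in both populations. The 226 tested genes with 1 exon had a median ratio of 1.02 in shCTL and 1.13 in shA5, and 168 and 173 of them were enriched. At the other end, 19 members had 11 exons or more, with a median ratio of -0.43 in shCTL and -0.48 in shA5, against -0.29 and -0.30 over the 2149 tested genes with as many exons. Of the 19, 9 were depleted in each population, 1 was enriched in shCTL and 0 in shA5. Of the 2149, 759 were depleted and 277 enriched in shCTL, and 801 were depleted and 323 enriched in shA5. The length of the longest exon had a rho of 0.01 in shCTL and 0.08 in shA5 with the ratio. GC content had a rho of 0.29 and 0.23 over the members, against 0.36 and 0.39 over all tested genes, so it moved with the ratio too, and the part of either in the ratios was not tested.

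**Figure D3:**
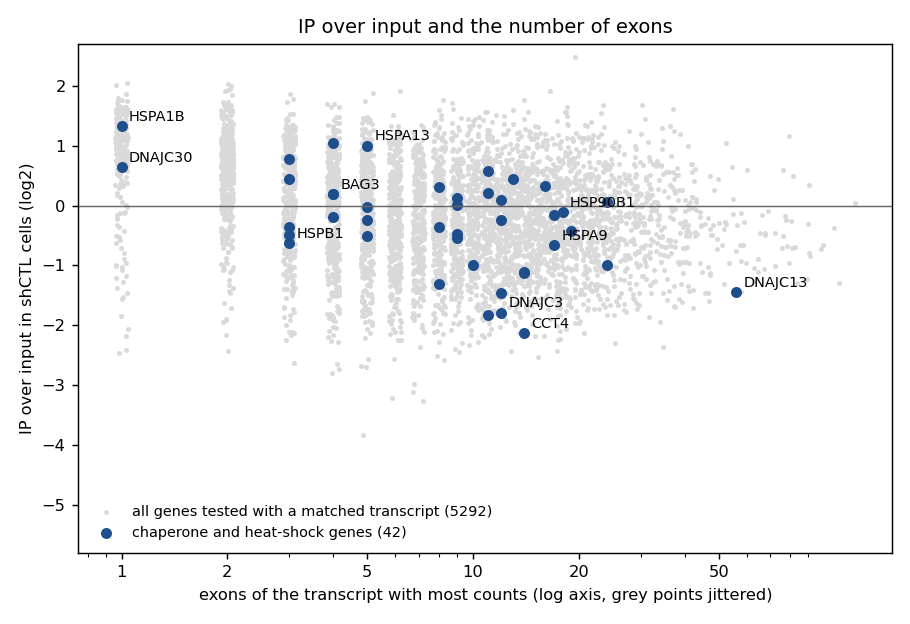
IP-to-input ratio in shCTL (log2) against the number of exons of the transcript with most counts (log axis) for the 42 members (blue) and the 5292 tested genes with a matched transcript (grey, jittered sideways). The members with 1 exon, HSPA1B and DNAJC30, lie above 0, and DNAJC13, with 56 exons, lies at -1.45.

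For 2 gene names the transcripts counted under the name differed from each other. They are described as such, having been chosen after their values were seen among the 4 tested members with enough counts on a second transcript. DNAJB6 makes a long nuclear and a short cytosolic protein by the use of different last exons. The long form (ENST00000262177) had 79, 42, 44 and 21 counts and ratios of -1.68 (-2.31 to -1.17) and -2.25 (-3.15 to -1.55). The short form (ENST00000429029) had 25, 48, 14 and 24 counts and ratios of 0.12 (-0.60 to 0.88) and -0.46 (-1.50 to 0.58). The short form was thus higher by 1.84 (0.91 to 2.80) in shCTL and by 1.83 (0.52 to 3.18) in shA5, differences whose intervals lie above 0. The long form carries 4 GGACT in its 3′ UTR and the short form 0, so the form with the copies in the 3′ UTR had the lower ratio. The 4 copies are shown with GGACT in capitals.
DNAJB6, chr7:157416094-157416114, plus strand: actagaccGGACTtgaggcac
DNAJB6, chr7:157416186-157416206, plus strand: gtcggtcaGGACTgtctcgag
DNAJB6, chr7:157416294-157416314, plus strand: gacgtttgGGACTtggccgcg
DNAJB6, chr7:157417127-157417147, plus strand: gtcctcttGGACTtgagggca
The sum of all transcripts listed as DNAJB6, with ratios of -0.996 and -1.24, was depleted in both populations, and the long form alone had too few counts for the minimum. The rule by which reads shared by both forms were assigned is not stated, and its part in this difference was not tested.

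HSPA14, a ribosome-associated HSP70, was a mixture in the deposited tables. Of the transcripts listed under its name, the one with most counts (ENST00000640019; 134, 285, 69 and 278) belongs to MSANTD7 in Gencode v44. The transcript that Gencode v44 gives to HSPA14 (ENST00000378372) had 148, 56, 107 and 40 counts. Its ratios were -2.18 (-2.69 to -1.77) and -2.64 (-3.25 to -2.15), against 0.27 (-0.03 to 0.58) and 0.74 (0.36 to 1.15) for the MSANTD7 transcript. The sum under the name HSPA14 stood at -0.51 and -0.41 and was not called. With thinned libraries it was depleted in shCTL (-0.87), and with the leading transcript alone, that of MSANTD7, it was enriched in shA5 (0.74). With the MSANTD7 transcript left out, 13 members were depleted in shCTL and 15 in shA5 (background 30.3 and 31.7%, counted with that transcript kept).

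**Figure D4:**
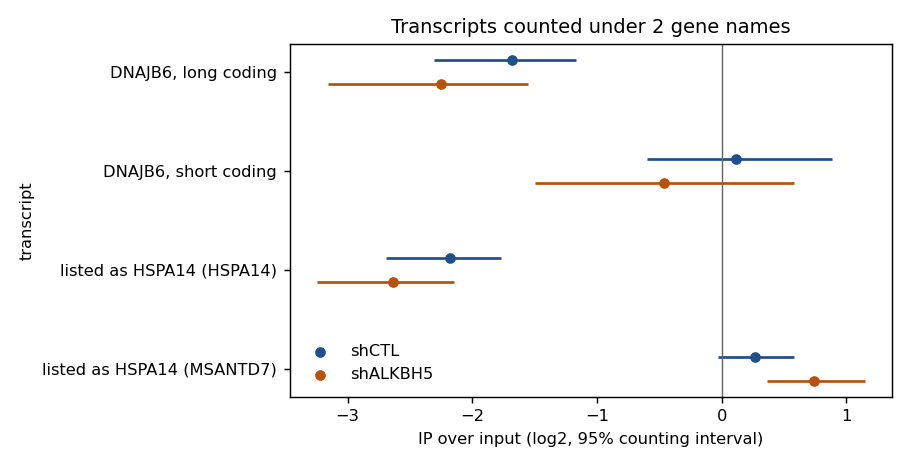
IP-to-input ratio (log2) of transcripts of DNAJB6 and of those listed as HSPA14, with points for the value and bars for the 95% counting interval, in shCTL and shA5. In both populations the long DNAJB6 form and the HSPA14 transcript lie below -1.5, and the short DNAJB6 form and the MSANTD7 transcript lie around or above 0.

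The second question was whether the ratio differed between shA5 and shCTL. The ratio was at least 1.5-fold higher in shA5 for 3 of the 42 members (background 5.38%) and at least 1.5-fold lower for 0 (background 5.09%). These are 7.14% and 0% of the members, and the first is near the background. The median difference was -0.033 over the members and 0.0036 over all tested genes. Each library was scaled to its own total, so a change in m6A shared by most transcripts cannot be seen in this measure. The rise in m6A peak abundance that the paper reports after knockdown was therefore not tested here. HSP90AB1 was higher in shA5 by 0.72 (0.33 to 1.12). After scaling to the library, its IP was higher in shA5 by 0.45 (0.18 to 0.73), and its input differed by -0.27 (-0.55 to 0.00). DNAJC10 (ERdj5), a disulfide reductase of the endoplasmic reticulum, had 81, 71, 20 and 45 counts and was higher by 0.90 (-0.03 to 1.88). DNAJC18, a J-protein of the endoplasmic reticulum membrane, had 83, 58, 39 and 57 counts and was higher by 0.61 (-0.19 to 1.43). The intervals of DNAJC10 and DNAJC18 include 0, and that of HSP90AB1 does not. DNAJC18 was under 1.5-fold with 2 CPM added (0.57). With thinned libraries, DNAJC10 and DNAJC18 had too few counts to be tested. Both were also counted as depleted, and with the GC trend removed DNAJC10 was under 1.5-fold in shCTL (-0.45) and DNAJC18 in shA5 (-0.41). None of the 3 passed 2-fold.

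Under 1.5-fold, several well-covered members had intervals that left out 0, in both directions. The ratio was higher in shA5 for BAG3 by 0.33 (0.12 to 0.54), for HSPA1B by 0.11 (0.05 to 0.17) and for HSPA5 by 0.08 (0.02 to 0.13). It was lower for HSPA4 (-0.35, -0.63 to -0.07), DNAJA1 (-0.29, -0.45 to -0.14) and HSP90B1 (-0.19, -0.27 to -0.12). These sizes are within the SD of the difference over all tested genes, 0.36. That SD includes the counting error of genes with far fewer counts, so it is no measure of spread for genes covered this well. Without replicates the spread between libraries of a group is unknown. DNAJC25 stood at -0.55 (-1.22 to 0.09), the lowest of the 42, and passed 1.5-fold with thinned libraries (-0.88), as did DNAJC17 (-0.54, and -0.78 when thinned) and DNAJC11 (-0.45, and -0.66 when thinned). For DNAJB1 (-0.02, -0.31 to 0.27), HSPA9 (-0.04, -0.15 to 0.06) and HSPB1 (0.00, -0.37 to 0.38) the interval includes 0 and leaves out a 1.5-fold difference.

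The third question was whether the RNA itself differed between the inputs. In such bulk RNA, less RNA per cell and fewer cells with the RNA cannot be told apart. Input CPM was at least 1.5-fold higher in shA5 for 2 of the 42 members (background 3.44%) and at least 1.5-fold lower for 1 (background 6.43%). These shares, 4.76 and 2.38%, are of few genes. The median difference was 0.049 over the members and -0.020 over all tested genes. DNAJC25 had 52 and 54 input counts in shCTL and shA5, a difference of 0.81 (0.25 to 1.40). Reads of DNAJC25 may also come from the readthrough gene DNAJC25-GNG10, which had 7 and 3 input counts. BAG6, a chaperone of tail-anchored and mislocalised proteins, had 41 and 37 input counts, a difference of 0.61 (-0.06 to 1.30), and its canonical transcript is not listed. It was under 1.5-fold with 2 CPM added (0.57), and with thinned libraries or its leading transcript alone it had too few counts to be tested. DNAJC10 had 81 and 20 input counts, a difference of -1.22 (-2.03 to -0.53), so that its higher ratio in shA5 goes with a lower input. Its IP differed by -0.32 (-0.90 to 0.23), and thinned libraries left too few counts to test it. DNAJC10 passed the minimum mean only through its shCTL counts, 81 and 71, with 20 and 45 in shA5. The minimum therefore favours calling such a gene lower in shA5.

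The most abundant members differed in opposite directions below the threshold. HSPA1B had 5844 input counts in shCTL and 4534 in shA5, which is 2611 and 3457 CPM and a difference of 0.40 (0.35 to 0.46). Its IP was higher by 0.52 (0.49 to 0.54), so input and IP went the same way. HSP90B1 had 6482 and 3107 input counts, 2897 and 2369 CPM, a difference of -0.29 (-0.35 to -0.23), and its IP was lower by a difference of -0.48 (-0.53 to -0.44). HSPA5 differed by -0.05 (-0.10 to -0.01) in the input and 0.02 (-0.01 to 0.06) in the IP, and its intervals do not overlap those of HSP90B1. HSPA9 differed by 0.02 (-0.06 to 0.10), HSPA4 by -0.05 (-0.26 to 0.16), DNAJB1 by 0.04 (-0.21 to 0.28), BAG3 by -0.04 (-0.22 to 0.14) and HSF1 by 0.26 (-0.36 to 0.87). Among HSPA1B, DNAJB1, BAG3, HSP90AA1 and HSPB1, the input interval of HSPA1B lay above 0, that of HSPB1 lay below it (-0.31, -0.60 to -0.03) and the others included it. DNAJC13 differed by -0.48 (-0.75 to -0.21), and DNAJC8 by 0.13 (0.01 to 0.24). With thinned libraries DNAJC13 passed 1.5-fold in the input (-0.60) and in the ratio (0.70). The SD of the input difference over all tested genes was 0.36, which includes the counting error of genes with far fewer counts.

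**Figure D5:**
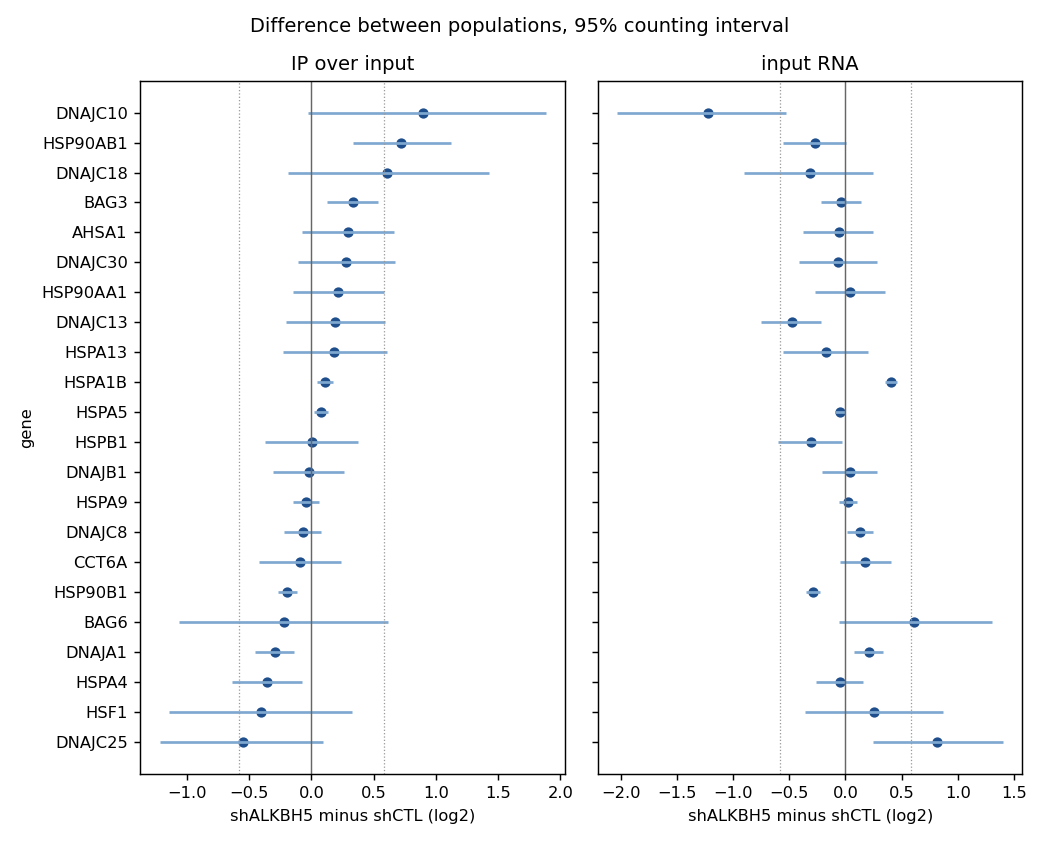
Difference between shA5 and shCTL (log2) in the IP-to-input ratio (left) and in input RNA (right) for the 22 tested members that the text names by rule, with points for the value, bars for the 95% counting interval and dotted lines at 1.5-fold. Left, only HSP90AB1 passes 1.5-fold with a bar that leaves out 0, and right, DNAJC10 lies at -1.22 and DNAJC25 at 0.81.

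Other genes of protein folding were counted from a list of 60, of which 60 were listed and 44 were tested. Of the 44, 4 were enriched and 11 depleted in shCTL (background 22.5 and 30.3%), and 4 were enriched and 14 depleted in shA5 (background 24.3 and 31.7%), with medians of -0.24 and -0.23. The difference in ratio passed 1.5-fold upward for 0 and downward for 3 (background 5.38 and 5.09%). Input RNA was at least 1.5-fold higher for 2 and lower for 0 (background 3.44 and 6.43%). HYOU1, an HSP110 of the endoplasmic reticulum, had 65, 100, 71 and 66 counts, with a ratio lower in shA5 (-1.16, -1.87 to -0.47) and an input that was higher (0.89, 0.39 to 1.41). CHORDC1 (72, 36, 66 and 28 counts), an HSP90 co-chaperone, had a difference in ratio of -0.67, whose interval includes 0 (-1.61 to 0.24), and a higher input (0.64, 0.14 to 1.15). SUGT1 (91, 40, 62 and 18 counts), a further HSP90 co-chaperone, had a lower ratio (-0.99, -2.06 to -0.06). LONP1, a protease of the mitochondrial matrix, had 131, 652, 89 and 515 counts and ratios of 1.49 and 1.26, unlike the mitochondrial HSP90 TRAP1 with 458, 225, 254 and 175 counts and ratios of -1.83 and -1.79. HYOU1, CHORDC1, SUGT1, LONP1 and TRAP1 were chosen after their values were seen. Among 15 tested genes of endoplasmic folding and the unfolded protein response, 0 were enriched in either population (background 22.5% in shCTL and 24.3% in shA5), and 1 was depleted in shCTL and 3 in shA5 (background 30.3 and 31.7%).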

How the data were processed

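m6A-seq of irradiated HEK293T cells was analysed as 4 libraries, 1 per group. The tables the authors deposited hold whole-number read counts for each Ensembl transcript, without normalization. Per the labels' processing notes, reads were handled with bcl2fastq 2.0, fastp 0.23.2, HISAT2 on hg38, SAMtools 1.9 and MACS2. The study's methods name StringTie for gene quantification. Whether it wrote these transcript counts, and how shared reads were assigned, is not given in the sources used here. Counts were summed per gene name and divided by library totals (CPM), and ratios were log2 with 0.5 CPM added. Genes needed a mean of 50 counts, and a call needed 1.5-fold. Intervals are exact at 95% (Clopper-Pearson for a ratio, the conditional odds ratio for a difference of ratios, Poisson for a level) and cover counting error only. Depth was 1311390 to 3944402 counts. Steps were tested on simulated data.

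The members, the lists and the rule for named genes were chosen with earlier results of these data known. Named genes were those past 1.5-fold in a difference, the 6 highest in input per kilobase, the 6 most and 6 least enriched among those averaging 200 counts or more, and a list of well-known members. Others are said to be chosen after their values were seen. No test was possible with 1 library per group. Alternatives were edgeR TMM and DESeq2 size factors, pseudocounts of 0.1 and 2 CPM, minimum means of 10 and 200 counts or none, the leading transcript only, thinned libraries, a GC trend removed (lowess, span 0.3) and a 2-fold threshold. Transcripts are from Gencode v44 on hg38 (98.1% of listed transcripts matched), promoters from RefSeq (GRCh38.p14). Tools were edgeR 4.0.16 and DESeq2 1.42.0 in R 4.3.3, and pandas 2.3.3, scipy 1.17.1, statsmodels 0.14.6, numpy 2.4.6 and matplotlib 3.10.9 in Python 3.11.15.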

Additional observations from a re-analysis of the deposited data

How the results depend on the processing

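No paired analysis was possible because the groups hold a single library and no replicate numbers, so none could be left out either. TMM and DESeq2 factors, a pseudocount of 0.1 CPM and the use of the leading transcript alone kept each count of members within 1.5 times its value. The members' median ratio was below 0 in both populations under all settings, from -0.31 to -0.08 in shCTL and from -0.35 to -0.13 in shA5. The median over all tested genes moved as well. In shCTL the members stood above it with a minimum mean of 10 (-0.20 against -0.25) and below it with 200 (-0.21 against 0.12). In shA5 they stood below it with both (-0.28 against -0.25, and -0.30 against 0.16). The median differences between the populations lay near 0 and took both signs (-0.056 to 0.0093 for the ratio and -0.035 to 0.054 for input RNA). Scaling to library totals keeps a shift shared by most genes out of these differences. The counts moved with the minimum, since it sets which genes are tested. The share of all genes past the threshold was counted under the main setting only. The counts that follow therefore have no background beside them and say nothing about the members as a group. With a mean of at least 10, 72 members were tested: 13 were enriched in shCTL and 9 in shA5, 23 and 25 depleted, the ratio was higher in shA5 for 6 and lower for 5, and input RNA higher for 8 and lower for 7. With at least 200, 24 were tested: 3 were enriched in shCTL, 5 depleted in shCTL and 7 in shA5, the ratio was higher in shA5 for 1, and input RNA higher for 0 and lower for 0. Without a minimum, 95 were counted: 15 and 15 were enriched, 34 and 33 depleted, the ratio was higher for 16 and lower for 12, and input RNA higher for 15 and lower for 15. At 2-fold, 3 were enriched in shCTL and 2 in shA5, 7 depleted in shA5, the ratio was higher for 0 and input RNA higher for 0. With the GC trend removed 9 were depleted in shA5, with libraries thinned to the smallest total the ratio was lower in shA5 for 3, and with 2 CPM added input RNA was higher for 1 (the cause was not tested). Leaving out the MSANTD7 transcript, an alternative chosen after seeing the data, kept both depleted counts within 1.5 times. Of 820 values of named genes under these settings, 783 stayed within the counting interval and 37 left it, 27 of them with the GC trend removed, and 0 called values changed sign. Depth limits the whole set: 53 of the 95 members were under the minimum, and of 42 listed J-proteins 19 were tested. The shA5 input, the shallowest library, widens every difference.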
